A study of Mus musculus with 2 samples.

Results

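The Ccl3 to Ccl9 cluster is a group of 5 genes for CC chemokines on mouse chromosome 11: Ccl3, Ccl4, Ccl5, Ccl6 and Ccl9. They were taken by name out of the 21938 protein-coding genes of the annotation, and every H3K27ac peak was collected from 50 kb before the first to 50 kb after the last of them. H3K27ac, the acetylation of lysine 27 on histone H3, had been measured by chromatin immunoprecipitation and sequencing in macrophages of the C57BL/6J strain. The cells were unstimulated and were derived from bone marrow, per the labels. The study's single group held 2 biological replicates, each begun from 10 ng of DNA, and the labels give the sizes as 350 to 480 without a unit. Both biosamples carry the same donor entry, and their age and sex were not collected, so the spread between them may leave out differences between animals. No treated or other cell group was analysed, and the values below are descriptions with no test between conditions.

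Chemokines are small secreted proteins that direct the movement of leukocytes through receptors coupled to G proteins. Ccl3, Ccl4 and Ccl5 (also called MIP-1 alpha, MIP-1 beta and RANTES) are inflammatory CC chemokines, while Ccl6 and Ccl9 act through the receptor Ccr1. Macrophages are a main source of Ccl3 and Ccl4 on activation, and Ccl5 is best known from activated T cells and from macrophages after stimulation. H3K27ac marks active promoters and enhancers, which are stretches of DNA that raise the transcription of a gene from a distance.

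The sequences at the centre of the results are shown first: the 250 bases upstream of the RefSeq start of the 3 members that have an entry in the promoter table used, and 3 distal peaks. All are on the mouse build GRCm38.p6. The promoters are on the minus strand, 5′ to 3′ towards the gene, at chr11:83649379-83649628 (Ccl3), chr11:83593088-83593337 (Ccl6) and chr11:83578637-83578886 (Ccl9), and come from RefSeq. Each lies wholly inside the gene's promoter peak in both replicates.
Ccl3: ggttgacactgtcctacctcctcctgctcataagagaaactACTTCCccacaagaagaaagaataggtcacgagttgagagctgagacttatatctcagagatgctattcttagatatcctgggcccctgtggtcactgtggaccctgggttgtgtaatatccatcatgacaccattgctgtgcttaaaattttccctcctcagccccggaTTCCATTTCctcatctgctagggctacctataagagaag
Ccl6: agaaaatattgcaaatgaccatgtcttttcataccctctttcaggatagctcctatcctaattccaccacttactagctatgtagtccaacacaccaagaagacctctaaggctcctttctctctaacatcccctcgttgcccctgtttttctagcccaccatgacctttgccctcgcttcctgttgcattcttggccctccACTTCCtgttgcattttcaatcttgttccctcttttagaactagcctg
Ccl9: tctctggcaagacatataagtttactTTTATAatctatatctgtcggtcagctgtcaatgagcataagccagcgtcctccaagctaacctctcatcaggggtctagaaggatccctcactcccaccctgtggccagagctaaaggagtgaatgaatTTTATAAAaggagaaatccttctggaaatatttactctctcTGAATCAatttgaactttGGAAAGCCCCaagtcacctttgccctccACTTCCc
Capitals mark matches on either strand to short words that transcription factors of macrophages are known to bind, and to the TATA word. The word of PU.1, the macrophage master regulator, was GAGGAAGT. That of the ETS family to which it belongs was the core GGAAGT, a word added after the sequences were seen. For AP-1 the word was TGANTCA, for C/EBP it was TTGCNNAA and for RUNX it was TGTGGTTT. The IRF word was GAAANNGAA, the CRE word was TGACGTCA, and the TATA box was searched as TATAAA. The NF-kB word was its usual degenerate form.

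The Ccl3 promoter held 1 IRF match, 39 to 31 bases upstream of the RefSeq start, and 1 ETS core match 209 to 204 bases upstream. In Ccl6 the only match was the ETS core, 48 to 43 bases upstream. Ccl9 had the most: an AP-1 match 53 to 47 bases upstream, an NF-kB match at 35 to 26, an ETS core at 7 to 2, and TATA matches at 224 to 219, 94 to 89 and 92 to 87, the last pair overlapping on opposite strands. Over the 32851 promoters of the table, 7.13% held the IRF word, 6.75% AP-1, 3.90% NF-kB, 12.4% TATA and 19.7% the ETS core in the same 250 bases. None of the 3 held the PU.1 word (2.44% of all promoters), which contains the ETS core, nor those of C/EBP (9.56%), RUNX (1.49%) or CRE (1.55%). A match is a string of letters and not a measured binding site.

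Each of the 3 promoters held 2 CpG dinucleotides in its 250 bases, where the median promoter held 6 and 29.0% held 2 or fewer. Their GC content was 46.8% (Ccl3), 45.2% (Ccl6) and 43.6% (Ccl9), against a median of 52.4%. Ccl6 and Ccl9 shared a run of 13 bases, gccctccacttcc, that begins 55 bases upstream in Ccl6 and 14 bases upstream in Ccl9 and holds the ETS core match of both. The best local alignment of this pair had 16 identical bases in 17. The longest run that Ccl3 shared with either of them was 8 bases.

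The distal sequences are the 300 bases around the summit in the authors' replicated list, on the plus strand. The first, chr11:83640602-83640901, belongs to the strongest distal peak of the window, downstream of Ccl3. The second, chr11:83617970-83618269, belongs to the next strongest, upstream of Ccl6. The third, chr11:83541236-83541535, is from the closest peak to Ccl5 that both replicates held.
Downstream of Ccl3: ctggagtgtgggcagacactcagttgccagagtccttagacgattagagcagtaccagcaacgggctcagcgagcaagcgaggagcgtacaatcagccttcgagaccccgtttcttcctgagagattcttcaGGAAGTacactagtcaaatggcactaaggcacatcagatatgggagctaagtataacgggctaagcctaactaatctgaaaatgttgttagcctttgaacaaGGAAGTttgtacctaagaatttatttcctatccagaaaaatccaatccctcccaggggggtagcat
Upstream of Ccl6: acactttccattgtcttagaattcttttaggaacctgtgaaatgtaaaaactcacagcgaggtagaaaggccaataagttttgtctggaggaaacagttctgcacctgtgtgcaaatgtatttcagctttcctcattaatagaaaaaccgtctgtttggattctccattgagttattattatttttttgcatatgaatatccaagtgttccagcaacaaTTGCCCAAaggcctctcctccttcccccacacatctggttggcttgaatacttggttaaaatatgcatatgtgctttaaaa
Upstream of Ccl5: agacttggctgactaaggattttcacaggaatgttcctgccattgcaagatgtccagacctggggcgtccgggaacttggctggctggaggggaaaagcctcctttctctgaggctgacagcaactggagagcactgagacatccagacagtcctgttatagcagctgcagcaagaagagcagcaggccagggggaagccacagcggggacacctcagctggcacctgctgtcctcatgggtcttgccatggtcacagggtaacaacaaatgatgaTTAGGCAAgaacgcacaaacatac
The capitals mark 2 ETS core matches in the first and 1 C/EBP match in each of the others. The GC content was 47.0%, 37.7% and 54.3%, and the CpG count 8, 2 and 4.

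A promoter peak was present in both replicates at 4 of the 5 genes: Ccl3, Ccl4, Ccl6 and Ccl9. Ccl5 had none in any of the 4 peak lists. By the same rule, a peak of each replicate that overlaps 1 kb on either side of any annotated start, 39.4% of protein-coding genes were called (8633 of 21938). The order of the promoter peaks by fold was Ccl3, Ccl4, Ccl9 and Ccl6 in every list. The replicate values of neighbours in that order did not overlap, and with 2 replicates no test of the differences was made. Fold is the value the lists give for a peak's signal, read here as a linear ratio over control or background from the column order of the file format and from the values. Peaks of the lists for each replicate were called on that replicate's own reads. The authors' replicated list and pooled pseudoreplicated list were made from both libraries together and have no spread. A rank is the place of a peak by fold in its own list, which held 29543 peaks in replicate 1 and 29345 in replicate 2.

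Ccl3, which attracts monocytes and T cells and is a ligand of Ccr1, had the highest fold and the widest peak of the cluster. The gene (ENSMUSG00000000982.5, minus strand) runs from 83647844 to 83649355. Replicate 1 gave its promoter peak a fold of 38.0 and replicate 2 one of 33.7, a mean of 35.9 ± 3.03 (SD, n = 2), and 35.3 in the replicated list. It ranked 261st and 611th, with 0.880% and 2.08% of each list above it. This was the largest difference between replicates among the members, and in both libraries the peak stayed above the other members' peaks. Among genes with a promoter peak, 1.69% had a higher one in replicate 1 and 3.80% in replicate 2. The peak spanned 83646604 to 83652202 (5599 bp) in replicate 1 and 83646440 to 83652347 (5908 bp) in replicate 2, against median promoter peaks of 990 and 1063 bp. It reached 2847 and 2992 bp upstream of the 5′ end and 2751 and 2915 bp downstream, which takes in the whole gene of 1512 bp. The summit lay 163 and 223 bp downstream of the 5′ end.

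Ccl4, a close relative of Ccl3, lies 13.2 kb away from it, 5′ end to 5′ end, and is transcribed in the opposite direction. It is the only member on the plus strand (ENSMUSG00000018930.3, 83662584 to 83664683). Its promoter peak had a fold of 28.7 and 27.3, a mean of 28.0 ± 1.00 (SD, n = 2), and ranked 1095th and 1388th. The peak was 3592 bp wide in replicate 1 (83661441 to 83665032) and 3327 bp in replicate 2 (83661693 to 83665019). It covered the whole gene of 2100 bp in both. In replicate 2 a second peak of 707 bp with a fold of 2.30 began 62 bp past its end. The replicated list gave 1 peak of 4840 bp with a fold of 30.1 over this ground.

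Ccl3 and Ccl4 were thus the 2 members that lay wholly inside a promoter peak in both replicates. Among the genes with a promoter peak in both, 0.556% did (48 of 8633). Both genes are short, and gene length was not matched in that share.

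Ccl9, or MIP-1 gamma, is a chemokine of myeloid cells that acts on Ccr1. The gene (ENSMUSG00000019122.8, minus strand, 83572919 to 83578636) is the longest member at 5718 bp. Its promoter peak stood at a fold of 25.5 in both replicates and 26.6 in the replicated list, with ranks of 1639 and 1737. The peak was 4688 bp wide in replicate 1 (83575377 to 83580064) and 5206 bp in replicate 2 (83574921 to 83580126), and 3.58% and 3.27% of genes with a promoter peak had a wider one. Its summit lay farther into the gene than in the other members, 868 and 384 bp from the 5′ end. With the peaks farther along the gene included, 79.6% and 84.8% of its length was covered.

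Ccl6, also called C10, is a chemokine described in rodents whose gene (ENSMUSG00000018927.3, minus strand, 83587882 to 83593087) starts 14.5 kb from that of Ccl9. The fold of its promoter peak was 19.6 in replicate 1 and 20.4 in replicate 2, a mean of 20.0 ± 0.586 (SD, n = 2), with ranks of 3222 and 3065. This was the lowest of the 4 peaks, yet it was above the median of 10.2 and 10.4 over genes with a promoter peak. It spanned 3651 bp (83590768 to 83594418) and 3849 bp (83590627 to 83594475), with the summit 316 and 287 bp downstream of the 5′ end. The stretch lies within E230016K23Rik, a noncoding gene on the other strand. A distal peak followed 447 bp farther upstream in replicate 1 (fold 12.3, 1720 bp) and 81 bp farther in replicate 2 (fold 13.7, 2084 bp). The replicated list holds both as 1 promoter peak of 5981 bp with a fold of 21.5.

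By rank, 3 of the 5 genes (Ccl3, Ccl4 and Ccl9) had a promoter peak in the upper 10% of both replicate lists, where 6.44% of protein-coding genes did (1413 of 21938). Ccl6 lay just outside, with 10.9% and 10.4% of the lists above its peak, and in the replicated list just inside, at 9.23%.

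Ccl5, a ligand of Ccr1 and Ccr3, stood apart. The gene (ENSMUSG00000035042.2, minus strand) runs from 83525778 to 83530518 and has 2 annotated starts. The nearest peak of replicate 1 lay 3905 bp upstream of the 5′ end (83534423 to 83535030, fold 3.79), with 88.1% of that list above it, and replicate 2 had no peak there. The nearest peak of replicate 2 lay 9947 bp upstream (83540465 to 83541658, fold 5.27, rank 19508). Replicate 1 held that one too (83540570 to 83541734, fold 6.36, rank 16484), and its sequence is the last of those above. Around Ccl5 a stretch of 60.4 kb in replicate 1 and 66.6 kb in replicate 2 held no peak, from just past the start of Taf15 across Heatr9 and the whole of Ccl5. Read depth is not given in the sources used here, so a gene with no peak fell short of the threshold the authors set and may still carry some H3K27ac.

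**Figure D1:**
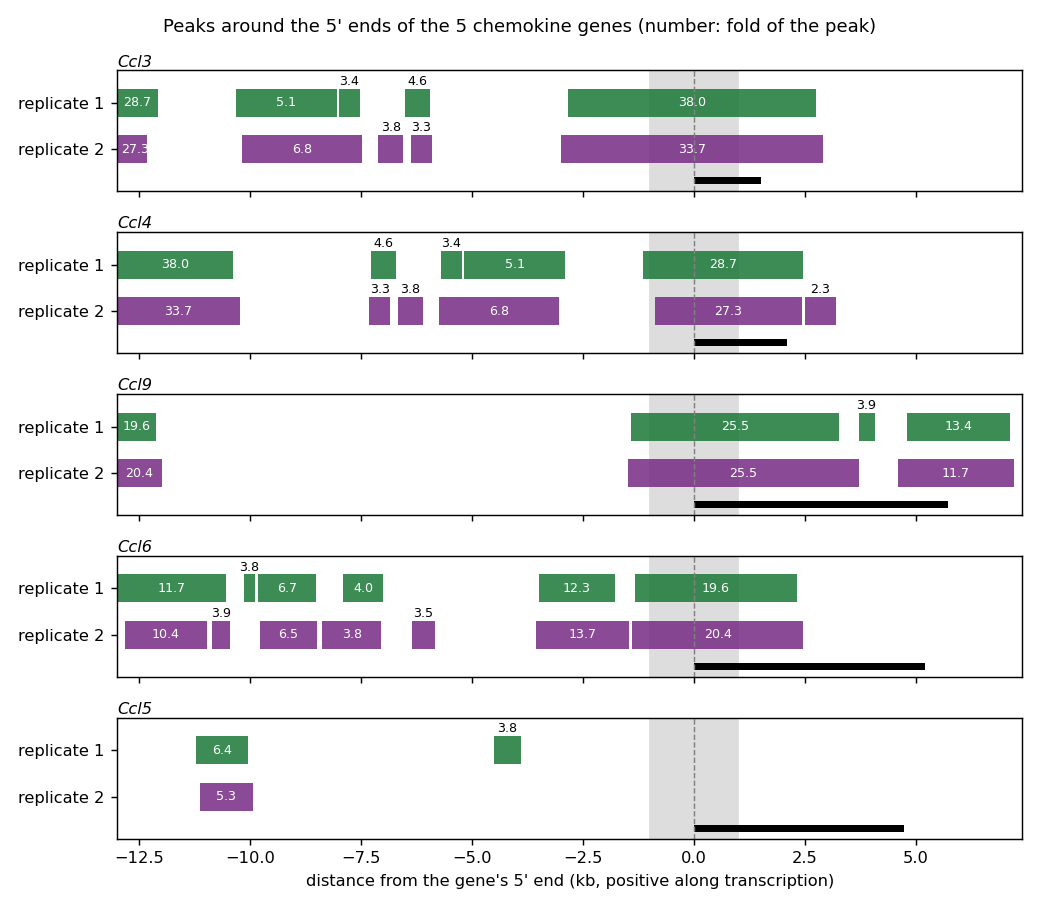
Peaks of both replicates (bars, with the fold as a number) by distance in kb from each gene's 5′ end, oriented along transcription; the black bar is the gene and the grey band the 1 kb on either side of the 5′ end. Bars at the left edge go on beyond the axis. Ccl3 and Ccl4 lie wholly under 1 peak with folds from 27.3 to 38.0. The promoter peaks of Ccl9 and Ccl6 lie over the first part of the gene, and Ccl9 has another peak over its 3′ end. Ccl5 has no bar in the band or over the gene.

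The whole window, 83475778 to 83714683 of chromosome 11 (238.9 kb), held 23 peaks in replicate 1 and 24 in replicate 2, a mean of 23.5 ± 0.707 (SD, n = 2). The replicated list held 24 and the pooled list 26. In each of the 4 lists 5 of these were promoter peaks, at Ccl3, Ccl4, Ccl6, Ccl9 and Wfdc17. The distal peaks numbered 18, 19, 19 and 21. Peaks covered 18.5% of the window in replicate 1 and 20.1% in replicate 2, against 1.40% and 1.46% of the genome. The density was 96.3 and 100.5 peaks per Mb, 8.88 and 9.33 times that of the genome, a mean ratio of 9.11 ± 0.317 (SD, n = 2). Chromosome 11 as a whole was denser than the genome, with 19.5 peaks per Mb in either replicate beside 10.8. The other windows of this length on chromosome 11 give a scale: over 511 of them laid end to end, the median was 2 peaks in either replicate.

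Over the 4 lists the peaks of the window joined into 27 separate regions. Both replicates had a peak in 17 of them. Of the rest, 2 had a peak in replicate 1 and not in replicate 2, 3 the reverse, and 5 appeared only where both libraries had been combined. Counted by peaks, 20 of the 23 in replicate 1 (87.0%) overlapped a peak of replicate 2, and 19 of the 24 in replicate 2 (79.2%) one of replicate 1. Over the whole lists these shares were 91.3% and 88.6%. The unshared peaks were low, with folds of 3.11 to 3.79 in replicate 1 and 2.30 to 4.19 in replicate 2, and none of them lay at a promoter. Under a stricter rule, an overlap of 50% of both peaks, 18 of the 23 in replicate 1 were shared.

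**Figure D2:**
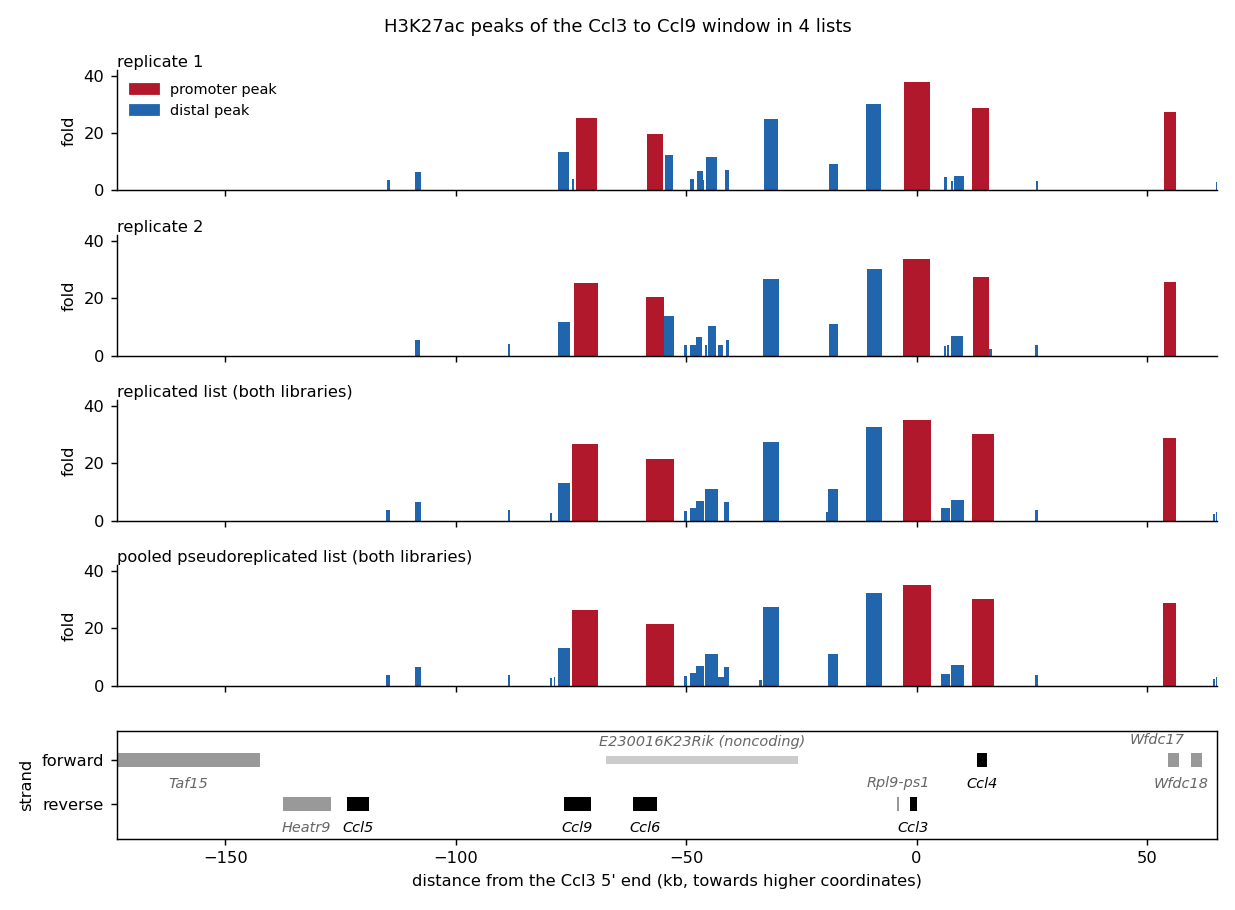
Fold of each peak (bar height) and its extent (bar width) in the 4 lists by distance in kb from the Ccl3 5′ end, with promoter peaks in red and distal peaks in blue, over the protein-coding genes and E230016K23Rik by strand (members in black). In all 4 lists the high bars stand at Ccl9, Ccl6, Ccl3, Ccl4 and Wfdc17 and at 2 distal sites between Ccl6 and Ccl3, and no bar stands left of the low ones beside Ccl5.

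Most distal peaks of the window were low beside its promoter peaks. Their median fold was 5.72 in replicate 1 and 5.26 in replicate 2, and that of the promoter peaks 27.3 and 25.8. The medians of the whole lists, 7.03 and 7.04, take in promoter peaks too, and a median over all distal peaks was not computed. Of the distal peaks, 2 in each replicate were in the upper 10% of their list, where 8.70% and 8.66% of all distal peaks were. These are the peaks of the first 2 distal sequences above, and the same 2 sites stood there in all 4 lists.

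The strongest of them lies between genes, with its midpoint 9268 bp (replicate 1) and 9138 bp (replicate 2) downstream of the Ccl3 5′ end. It spanned 83638465 to 83641710 and 83638645 to 83641789, a width of 3246 and 3145 bp. Its fold was 30.3 and 30.2, and 32.6 in the replicated list, with ranks of 897 and 975. In both replicates it was thus higher than the promoter peaks of Ccl4, Ccl9 and Ccl6 and lower than that of Ccl3. The summit sequence holds the 2 ETS core matches and 8 CpG shown above.

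The next lies in an intron of E230016K23Rik, with its midpoint 24615 bp (replicate 1) and 24750 bp (replicate 2) upstream of the Ccl6 5′ end. It spanned 83616176 to 83619228 in replicate 1 (3053 bp) and 83616097 to 83619578 in replicate 2 (3482 bp). Its fold was 25.0 and 26.8, with ranks of 1755 and 1469, and 27.3 in the replicated list. In replicate 1 it was below the Ccl9 promoter peak and in replicate 2 above it, so their order was not the same in the replicates. Its C/EBP match lies at 83618189 to 83618196, 69 bases past the summit.

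Between the starts of Ccl6 and Ccl3, 56.3 kb apart, there were 9 distal peaks in replicate 1 and 11 in replicate 2, the most between any adjoining members. Within E230016K23Rik lay 7 of the window's distal peaks in replicate 1 and 9 in replicate 2. Going upstream from Ccl6, the peak next to its promoter was followed in replicate 2 by one at 83598928 to 83599447 (fold 3.52), which replicate 1 lacked. Then came 83600086 to 83601003 in replicate 1 (3.96) and 83600136 to 83601467 in replicate 2 (3.81). A peak at 83601607 to 83602917 (fold 6.71) and 83601581 to 83602876 (6.54) differed little between replicates. In replicate 1 a peak of 264 bp with a fold of 3.79, the narrowest of the window in that list, followed it at 83602976.

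Farther along, replicate 1 had 1 peak from 83603637 to 83606129 with a fold of 11.7. Replicate 2 divided the same stretch into 83603537 to 83603940 (3.85) and 83604062 to 83605912 (10.4), and added a peak at 83606346 to 83607449 (3.52). The last before the strong intronic peak lay at 83607797 to 83608639 in replicate 1 (7.25) and at 83608099 to 83608677 in replicate 2 (5.26). Outside the noncoding gene, a peak between the 2 strong distal sites reached 9.27 in replicate 1 (83630464 to 83632370) and 10.9 in replicate 2 (83630304 to 83632380).

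The 13.2 kb between the divergent Ccl3 and Ccl4 held 3 low distal peaks in each replicate. Their folds were 4.63 (83655313 to 83655879), 3.43 (83656879 to 83657356) and 5.07 (83657411 to 83659675) in replicate 1. In replicate 2 they were 3.34 (83655267 to 83655739), 3.82 (83655907 to 83656471) and 6.77 (83656833 to 83659546). The replicates thus placed the boundaries differently, and the replicated list gave 2 peaks here, with folds of 4.25 and 7.09. None came near the promoter peaks on either side.

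At Ccl9 the signal went on past the end of the gene. A distal peak over the 3′ end reached 13.4 in replicate 1 (83571520 to 83573846, rank 6375) and 11.7 in replicate 2 (83571436 to 83574050, rank 7963). In replicate 1 a small peak of 362 bp (83574568 to 83574929, fold 3.93) stood over an exon between it and the promoter peak. Replicate 2's promoter peak began at 83574921 and so overlapped only the edge of this small peak. No distal peak lay between the starts of Ccl9 and Ccl6 in either replicate. From Ccl9 towards Ccl5 the replicate lists held only a peak of 443 bp in replicate 2 (83560705 to 83561147, fold 4.19) before the pair upstream of Ccl5.

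Past Ccl4, replicate 1 held a peak at 83675316 to 83675629 of fold 3.44, and its counterpart at 83675118 to 83675682 one of 3.52 in replicate 2. At the far edge of the window replicate 1 had a peak of 274 bp (83714277 to 83714550, fold 3.11). The regions that neither replicate list held all had folds of 2.12 to 3.15, the lowest part of those lists. They lay at 83569730 to 83570325, 83570577 to 83570916, 83615267 to 83615847, 83629718 to 83630082 and 83713631 to 83714042.

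When peaks up to 10 kb apart were joined, the longest run in bp was the one around Ccl3 and Ccl4 in both replicates. It held 7 peaks over 34.6 kb in replicate 1, from 83630464 to 83665032, and peaks covered 51.1% of it. In replicate 2 it held 9 peaks over 45.4 kb and ended past Ccl4, at 83675682. In the replicate lists the run with the most peaks was a shorter one, from the Ccl6 promoter to the strong intronic peak. It held 8 peaks over 28.5 kb in replicate 1 and 10 over 29.0 kb in replicate 2, while in the replicated list the run around Ccl3 and Ccl4 held more, 8 against 7. The widest gap between peaks of the window was 29.8 kb in replicate 1, between the Ccl5 side and Ccl9, and 27.3 kb in replicate 2, between Ccl4 and Wfdc17.

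**Figure D3:**
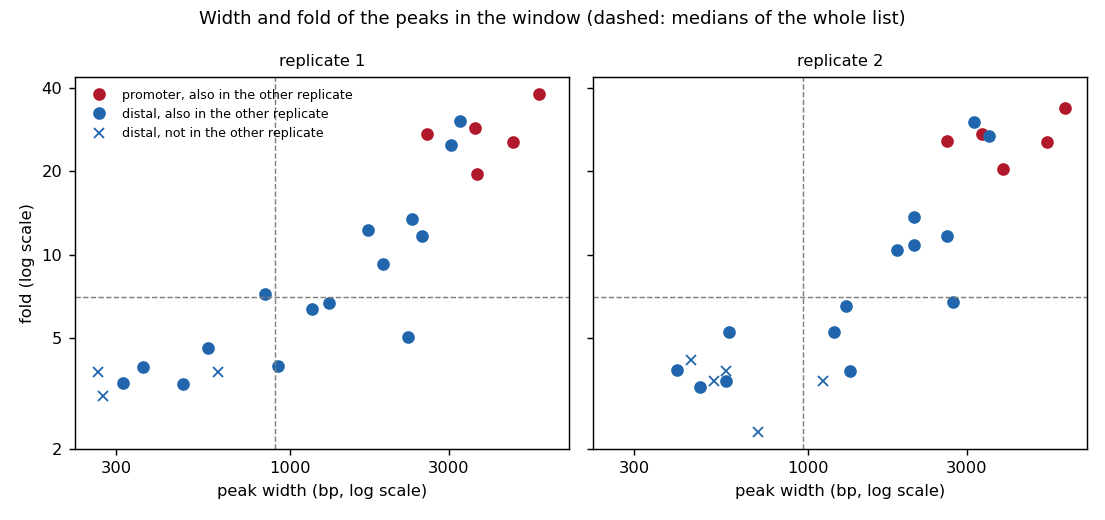
Width in bp and fold of each peak of the window, both on log scales, in replicate 1 (left) and replicate 2 (right), with promoter peaks in red, distal peaks in blue, and crosses for peaks that the other replicate lacked; dashed lines are the medians of the whole list. The 5 promoter peaks and 2 distal ones sit at the upper right with folds of 19.6 to 38.0, and all crosses lie at folds of 4.19 or less.

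The wider peaks of the window were mostly also the higher ones, as the plot of width against fold shows. An exception in replicate 2 was the peak of 2714 bp between Ccl3 and Ccl4, with a fold of 6.77. It was wider than the Wfdc17 promoter peak (2617 bp, fold 25.8). Every peak with a fold above 19 was wider than 2.5 kb in both replicates. After them, the highest distal peak of replicate 1 was the one over the Ccl9 3′ end, with a fold of 13.4 (11.7 in replicate 2). In replicate 2 it was another site, the peak next to the Ccl6 promoter, with 13.7 (12.3 in replicate 1). A gap thus separated the 2 strong distal sites from the rest.

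Over the 19 distal peaks of the window in the replicated list, 4 held the C/EBP word in 300 bases around the summit (21.1%), beside 12.01% of all 19108 distal peaks of that list. They are the peaks with summits at 83541386 (upstream of Ccl5), 83560876, 83572188 (past the Ccl9 3′ end) and 83618120 (upstream of Ccl6). The RUNX word was in 1 (5.26%, beside 2.70%), the peak between Ccl3 and Ccl4 with its summit at 83655572. The ETS core was in 2 (10.5%, beside 21.7%), the strong peak downstream of Ccl3 and the low one past Ccl4. None held the words of PU.1 (2.99% of all distal peaks), AP-1 (9.97%), IRF (11.0%), NF-kB (3.41%) or CRE (0.209%). With 19 peaks these shares rest on a few matches each, and nothing about a factor's binding follows from them.

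The other protein-coding genes with a start in the window were Taf15, Heatr9, Rpl9-ps1, Wfdc17 and Wfdc18. Wfdc17, which encodes a small secreted protein with a whey acidic protein domain, had a promoter peak of 27.3 in replicate 1 (83703030 to 83705604) and 25.8 in replicate 2 (83703017 to 83705633), between those of Ccl9 and Ccl4 in both. Heatr9 and Wfdc18 had none in any list. Rpl9-ps1, a ribosomal protein pseudogene by its name, counted only through the edge of the Ccl3 peak, which reached 18 bp into its 1 kb in replicate 1 and 182 bp in replicate 2. Taf15, which encodes an RNA-binding protein of the transcription machinery, has its promoter peaks (up to 22.2 and 23.8) at its 5′ end outside the window, and its start inside the window had none. None of the 7 genes of other types with a start in the window, E230016K23Rik and 6 others, had a peak there in both replicates.

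Of 32 other chemokine ligand genes that the annotation names, 5 were called in both replicates (15.6%), beside the 39.4% of all protein-coding genes. The highest was Pf4, a CXC chemokine of platelets, with folds of 41.6 and 42.6, above Ccl3 in both replicates. Ccl12 had 21.4 and 26.8, and Ccl7 had 16.9 and 19.7. Ccl2 had 11.5 and 12.1, and its highest peaks in the replicates were neighbours that do not overlap. Where the libraries were combined, 1 peak with a fold of 24.4 stood there. These 3 genes encode chemokines that draw in monocytes. In order of promoter fold among all chemokine ligand genes, the cluster held places 2, 3, 4 and 6 of 10 in replicate 1 and 2, 3, 5 and 6 of 9 in replicate 2. Ccl12 and Ccl9 changed places between the replicates. In both lists made from the combined libraries the cluster held places 2, 3, 5 and 8, with Ccl6 (21.5) below Ccl2 (24.4) and Ccl7 (22.6).

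Receptor genes for the members' products were read in the same way. Ccr1, the receptor of Ccl6 and Ccl9, had promoter folds of 11.0 and 11.2, and Ccr3 had 9.16 and 9.05. Ackr2, a receptor that takes up chemokines without signalling, had none. Its nearest peak was 20535 bp away in replicate 1, 20465 bp in replicate 2 and 11142 bp in both lists of the combined libraries. In these cells the ligand genes Ccl3 and Ccl4 thus had higher promoter peaks than Ccr1 and Ccr3 in both replicates.

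**Figure D4:**
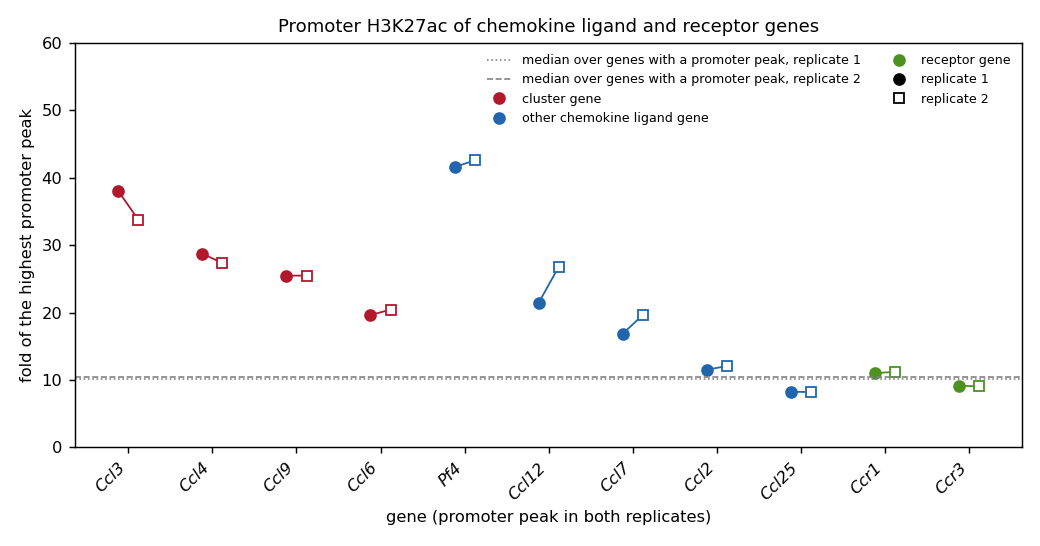
Fold of the highest promoter peak in replicate 1 (filled circles) and replicate 2 (open squares) of each chemokine ligand gene with one in both and of the receptor genes Ccr1 and Ccr3, with the median over all genes with a promoter peak as grey lines. The 4 cluster genes lie between 19.6 and 38.0, above the medians of 10.2 and 10.4 and below Pf4 at 41.6 and 42.6.

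The labelled cell type was checked against marker genes. Both replicates had a promoter peak at all 8 macrophage markers, among them Spi1, Csf1r and Adgre1, beside 39.4% of all protein-coding genes. Of 22 markers of other cell types 2 did: Xcr1 of dendritic cells (23.6 and 20.0) and Ms4a1 of B cells (6.37 and 4.86). Xcr1 stood above the lowest of the macrophage markers, Mertk (17.4 and 16.3). The 6 markers of T and NK cells, which are known producers of Ccl3, Ccl4 and Ccl5, had none, and neither had those of neutrophils, mast cells and basophils, or fibroblasts. In a bulk sample, more cells with the mark and more of the mark per cell cannot be told apart.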

How the data were processed

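H3K27ac peaks of 2 replicates were analysed as 4 lists that the authors deposited. Per the deposited text files, each replicate list came from its own alignments, and the replicated and pooled pseudoreplicated lists came from both. The column the authors deposited for a peak's signal was read as a fold, a linear ratio to control or background, and another deposited column as a q-value on a −log10 scale. Both readings rest on the column order of the narrowPeak format and on the values. The build is mm10, per the labels. Not given in the sources used here are the aligner, peak caller, settings and read depth. No scaling of folds between lists is recorded, so peaks were ranked within a list. A wider called peak covers more bases, so covered shares move with how much was called.

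Positions are 1-based on GRCm38.p6 with GENCODE M21 genes. A peak was promoter when it overlapped 1 kb either side of any of 93513 protein-coding starts, otherwise distal, and replicates shared a peak that overlapped by 1 bp. Genes named are the members, the other protein-coding genes of the window, receptor genes (1 result of the list is not reported here), the 4 other ligand genes that rank highest by fold in the replicated list, and markers. Of 33 other ligand names 32 matched the annotation. Promoter sequences are from a RefSeq table, with entries for 3 members, and distal ones from the genome. The members and lists were chosen with earlier results of these data known, and the ETS core word after the sequences were seen. Python 3.11.15, pandas 2.3.3, numpy 2.4.6 and Biopython 1.88 were used, and the promoter rule was tested on simulated data. Alternatives were promoter windows of 2.5 kb and 500 bp, the 5′ end alone, midpoints, starts of all gene types, a −log10 q of at least 5, the 20000 highest peaks, an overlap of 50% of both peaks, the lists of both libraries, each replicate alone, the members' span alone and sequences of 200 bp.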

Additional observations from a re-analysis of the deposited data

How the results depend on the processing

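Of 67 recomputed values, 58 stayed within the spread or within 1.5 times the main count. Some of the 58 could not move. The words of PU.1, AP-1, IRF, NF-kB and CRE had no match in 300 bp, and the sequences of 200 bp lie inside those. Ccl3, Ccl4, Ccl6 and Ccl9, and not Ccl5, had a promoter peak under each of the 10 settings run, each replicate alone included. Most of these settings could not change the calls. The members' promoter peaks span the 5′ end, and in the replicate lists they ranked 3222nd or higher with a −log10 q of at least 107.5. The peak closest to Ccl5 in any list lay 3623 bp from its 5′ end, beyond the window of 2.5 kb. The number of distal peaks in the window, a mean of 18.5 over the replicates, was 9.5 when the 20000 peaks with the highest fold were kept in each list, since low peaks leave by construction. The peak density, 9.11 times that of the genome, was 13.7 times over the span from the first to the last member, which leaves out the emptier flanks. The promoter folds of Ccl4, Ccl6 and Ccl9 were 30.1, 21.5 and 26.6 in the lists of both libraries, above both replicates. Of the other chemokine ligand genes, 5 were called in the main setting. The count was 6 with the window of 2.5 kb, in the pooled pseudoreplicated list alone and in replicate 1 alone, and 7 in the replicated list alone. The ETS core was in 1 distal peak of the window with sequences of 200 bp, where 300 bp gave 2. Sharing between replicates has no value with a replicate left out. No paired analysis was possible because there is 1 group. With the read depth unknown, low peaks found in 1 replicate cannot be told from a difference in depth.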
